A study of Mus musculus with 4 samples.

Results

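The genes for the proteins of the cytosolic ribosome, the particle that translates mRNA, were examined across 4 RNA-seq libraries of mouse intestine. Members were taken by gene symbol alone: a symbol made of Rps or Rpl and a number, with or without the suffix a, x, l, al, l1 or a1, or the symbols Rplp0 to Rplp2 and Rpsa. This gave 87 genes of 55203 in the deposited tables, 34 of the small subunit and 53 of the large subunit. Of these, 84 were of type protein_coding in the GENCODE vM39 annotation, and 3 (Rpl6l, Rps12l1 and Rpl32l) were pseudogenes by type. Fau and Rack1 encode parts of the ribosome under other names and are given separately.

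The mice of all 4 libraries were C57BL/6NTac, wild type (WT), male, adult at 8 to 12 weeks, and held specific-pathogen-free (SPF). By label, 2 libraries form the RVC group, treated at 4 mM with ribonucleoside vanadyl complex, which blocks ribonucleases, and 2 form the fresh frozen group. The protocol text is the same for all 4 and describes an RVC rinse, so how the fresh frozen tissue was handled is known from its label alone. The stated purpose of the series was a bulk measurement to set beside MERFISH, an imaging method that counts transcripts in tissue sections. The labels do not say whether libraries 1 and 2 of a group came from separate mice, so p-values measure the spread between these samples, which may be technical. No batch number is shared between libraries: batch cannot be told apart from group.

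Ribosomal protein mRNAs are among the most abundant mRNAs of most cells. Many begin with a cytosine followed by an unbroken run of pyrimidines, the terminal oligopyrimidine (TOP) tract, through which their translation is controlled by mTOR signalling and the RNA-binding protein LARP1. Introns of many of these genes carry small nucleolar RNAs (snoRNAs), which guide the modification of ribosomal RNA, and the abundant mRNAs have left numerous processed pseudogenes across mammalian genomes. In the intestine, ribosome production is high in the dividing cells of the crypts.

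The values are FPKM, fragments per kilobase of transcript relative to all mapped fragments, summed over the transcripts of a gene. The number of fragments is unknown. Relative depth, read from coverage divided by FPKM, lay between 72.6% and 100% of that in the deepest library, fresh frozen 2. The labels name ileum and the protocol names distal colon: 11 of 12 colon genes passed the filter on low values, with Car1 at 1655 ± 90.2 FPKM (SD, n = 4). Of 12 ileum genes 3 passed: Fabp2 at 22.8 ± 13.996 FPKM (43.7 FPKM in fresh frozen 2 and 14.5 to 16.8 FPKM in the others), Fabp6 at 3.37 ± 0.514 FPKM and Slc10a2 at 2.73 ± 0.40 FPKM (SD, n = 4). Another 5 (Apoa4, Defa17, Defa22, Defa26 and Fgf15) were listed at 0 in every library. The tissue is therefore called intestine here. In bulk tissue, fewer cells of a type and less RNA per cell cannot be told apart.

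The start sites of several members are shown because the TOP tract lies there, and both genes of the pairs Rps27 and Rps27l and Rpl22 and Rpl22l1 are included. Each window of 45 bases holds 20 bases before the annotated first base of the transcript and 25 bases from it onwards. The sequences are from the RefSeq promoter table, whose build is GRCm38.p6, and their positions were found by exact match to GRCm39. Capitals mark CTTTCC on the sense strand within 10 bases of the start, and CCGGAAG, the core of sites bound by ETS factors such as GABPA, on the printed strand.
Rps27: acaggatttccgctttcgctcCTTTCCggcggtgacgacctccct
Rpl13a: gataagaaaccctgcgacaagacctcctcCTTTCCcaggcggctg
Rpl38: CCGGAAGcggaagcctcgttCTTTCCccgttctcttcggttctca
Rpl15: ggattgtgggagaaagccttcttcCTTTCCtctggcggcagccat
Rps10: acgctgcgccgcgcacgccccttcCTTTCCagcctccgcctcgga
Rpl41: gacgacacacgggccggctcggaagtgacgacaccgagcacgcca
Rps27l: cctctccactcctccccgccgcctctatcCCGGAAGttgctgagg
Rpl22, window 1: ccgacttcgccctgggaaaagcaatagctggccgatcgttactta
Rpl22, window 2: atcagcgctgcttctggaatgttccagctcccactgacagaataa
Rpl22l1: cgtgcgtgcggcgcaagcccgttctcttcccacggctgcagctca
The windows lie at chr3:90120931-90120975 on the minus strand for Rps27, chr7:44778145-44778189 on the minus strand for Rpl13a, chr11:114559386-114559430 on the plus strand for Rpl38 and chr14:4198690-4198734 on the plus strand for Rpl15. Those of Rps10 (chr17:27854194-27854238, minus), Rpl41 (chr10:128385013-128385057, minus), Rps27l (chr9:66853348-66853392, plus) and Rpl22l1 (chr3:28859637-28859681, plus) follow. Rpl22 has 2 windows in the table, at chr4:152410163-152410207 and chr4:152408873-152408917 on the plus strand. Rps27l also has a second window, at chr9:66853675-66853719 on the plus strand, which is not printed. CTTTCC stood near the start of Rps27, Rpl13a, Rpl38, Rpl15 and Rps10. These letters were not in the printed windows of Rps27l, of Rpl41, the most abundant large-subunit member, or of either gene of the pair Rpl22 and Rpl22l1. Their absence does not mean that a TOP tract is absent, since other runs of pyrimidines can form one. A start in this table is 1 annotated position, and transcripts that begin elsewhere are not covered by it.

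RefSeq windows, from 250 bases before to 50 after the start, were matched by symbol for 61 of the 84 members that passed the filter. CTTTCC on the sense strand within 10 bases of the start occurred in 9 of the 61 (14.8%), against 1.30% of 27025 genes. The 9 were Rpl13a, Rpl15, Rpl18, Rpl28, Rpl35, Rpl35a, Rpl38, Rps10 and Rps27. The longest pyrimidine run starting within 10 bases of the start had a median of 7 bases in members and 4 in all genes, and reached 18 bases at Rpl35 and 17 at Rpl15. CCGGAAG, searched on both strands of the whole window, was present in 25 members (41.0%) and 9.93% of all genes. AAGATGGC, the core letters of sites for the factor YY1, was present on either strand in 6 members (9.84%) and in 3.19% of all genes. TATAAA, the TATA box, was present on either strand in 8 members (13.1%) and 15.7% of all genes. CTTTCC and CCGGAAG can overlap at CC, and CCGGAAG and AAGATGGC at AAG.

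Nearly all of the members stood at high levels per length. Of the 84 that passed the filter (a mean of at least 1 scaled FPKM and a transcript of at least 300 nt), 79 had a mean of at least 100 FPKM, 32 of the small and 47 of the large subunit. These 79 were all among the 1000 most abundant of the 13771 genes tested. The median over the 84 was 397 FPKM, with quartiles of 280 and 560, against a median of 6.61 FPKM over all genes tested. The 79 spanned a 13.0-fold range, from 129 FPKM for Rpl22l1 to 1674 FPKM for Rps27. The members thus fell into a compact group and a few genes far below it.

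**Figure D1:**
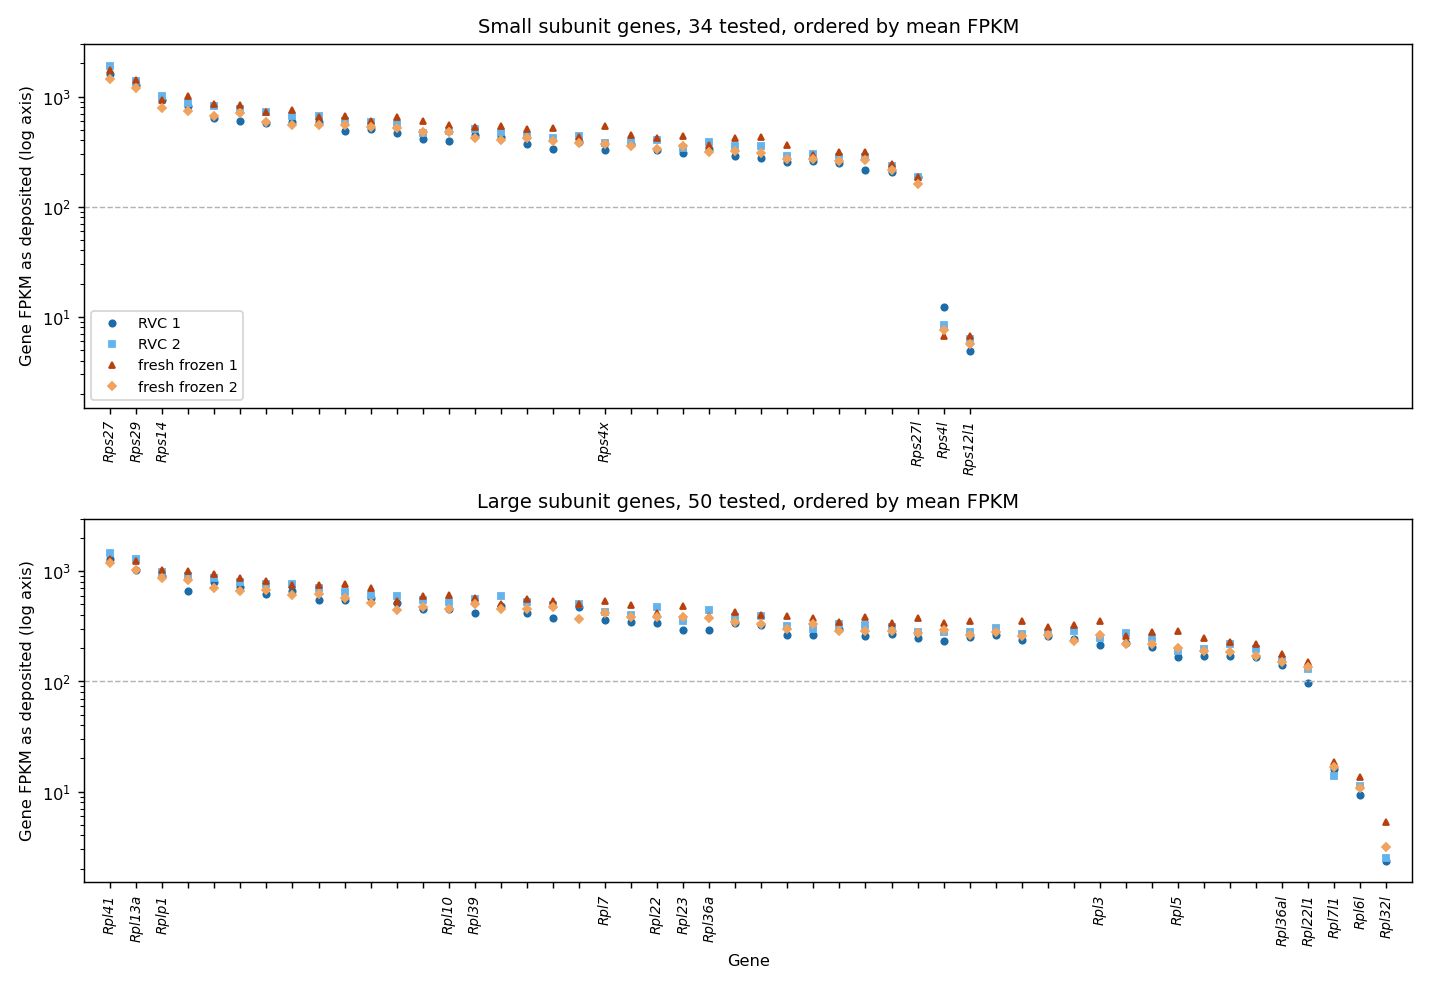
Gene FPKM as deposited (log axis) of the 84 members that passed the filter in each of the 4 libraries, in the small subunit (top, 34 genes) and the large subunit (bottom, 50 genes), ordered by mean; only the genes named by rule carry a label. The dashed line marks 100 FPKM; 2 small-subunit and 3 large-subunit genes lie below it, and the highest, Rps27, has a mean of 1674 FPKM.

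In the small subunit the highest level was that of Rps27 (ENSMUSG00000090733, GRCm39 chromosome 3, 90119829 to 90120958), the gene for a zinc-finger protein, with 1609 and 1897 FPKM in RVC and 1752 and 1439 FPKM in fresh frozen. Rps29, a short zinc-binding protein of the subunit head, followed with 1266, 1372, 1398 and 1188 FPKM in RVC 1, RVC 2, fresh frozen 1 and fresh frozen 2. Rps14, a protein of the subunit platform, had 922.6 and 1020 FPKM in RVC against 924.9 and 786.6 FPKM in fresh frozen. The groups overlapped for Rps27 and Rps29 and, after the libraries were scaled, not for Rps14.

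In the large subunit Rpl41, the gene for a very short basic peptide, was highest, with 1302 and 1462 FPKM in RVC and 1281 and 1202 FPKM in fresh frozen. Both RVC values of Rpl41 lay above both fresh frozen values. Rpl13a, known also for a role outside the ribosome in silencing inflammatory mRNAs, had 1036 and 1305 FPKM in RVC and 1229 and 1036 FPKM in fresh frozen. Rplp1, an acidic protein of the stalk that recruits elongation factors, had 907.6 and 992.8 FPKM in RVC and 1038 and 868.4 FPKM in fresh frozen. For both of these genes the groups overlapped.

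At the lower end, 5 members passed the filter with means under 100 FPKM. The pseudogene Rps12l1 had a mean of 5.86 ± 0.774 FPKM (SD, n = 4) and the paralogue Rps4l 8.76 ± 2.47 FPKM. In the large subunit, Rpl32l stood at 3.33 ± 1.39 FPKM, Rpl6l at 11.2 ± 1.68 FPKM and Rpl7l1 at 16.3 ± 1.99 FPKM. Of the 5, Rpl6l, Rps12l1 and Rpl32l are the 3 members of a pseudogene type. The 3 members that did not pass were Rpl3l, Rpl10l and Rpl39l, paralogues described with their pairs.

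Members spread over 19 chromosomes, 15 of them on chromosome 7 and 4 on X. The coefficient of variation over the 4 libraries had a median of 13.7% (range 5.90 to 41.7%), beside 13.8% for all genes tested and 11.6% for the 603 genes of at least 100 FPKM. Its lowest value was that of Rplp2, at 286 ± 16.9 FPKM (SD, n = 4), and its highest that of Rpl32l. Among members of at least 100 FPKM the highest was that of Rpl5, with 210 ± 51.3 FPKM. The upper confidence bound in the files lay a median of 5.07 to 5.31% above the value for members' most abundant transcripts, depending on the library, which is less than the spread between libraries.

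Small-subunit genes stood higher than large-subunit genes in each library. The median small-subunit member measured 378 and 438 FPKM in the RVC libraries and 526 and 401 FPKM in the fresh frozen libraries. The median large-subunit member measured 297, 367, 397 and 342 FPKM in the same order. On the log2(FPKM + 1) scale the small-subunit median exceeded the large-subunit median by 0.34, 0.25, 0.41 and 0.23, a mean of 0.31 ± 0.082 (SD, n = 4). Between 64.7% and 73.5% of small-subunit members lay above the large-subunit median of their library. The excess was positive in all 4 libraries, and the values of RVC lay within those of fresh frozen. The subunits were not compared by a test, since the 4 libraries measure the same genes, and quartiles of the subunits overlapped in each library: in RVC 1 they were 280 to 557 FPKM for small-subunit and 235 to 481 FPKM for large-subunit members.

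Because the large subunit has more genes, its summed FPKM was the higher, 18959 against 15442 in RVC 1 and 24202 against 19293 in fresh frozen 1. Members of both subunits together held 4.72 and 5.42% (RVC) and 6.35 and 5.65% (fresh frozen) of the FPKM of genes with a transcript of at least 300 nt, a mean of 5.54 ± 0.672% (SD, n = 4). Shorter genes, most of them noncoding, stay out of this total because their FPKM is large and unstable. Over protein-coding genes alone the shares were 8.25, 9.26, 9.68 and 8.58% in the same order. With the first denominator RVC lay below fresh frozen, and with the second the groups overlapped.

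RVC and fresh frozen were compared with limma on log2(scaled FPKM + 1) over all 13771 genes. No member passed an adjusted p of 0.05 (limma, Benjamini-Hochberg), where 5 genes (0.0363%) of all tested did. The smallest adjusted p of a member was 0.210. At an unadjusted p under 0.05, 5 members (5.95%) were lower in RVC, beside 8.99% of all genes, and 1 (1.19%) was higher, beside 9.38%. In 11 members (13.1%) both RVC values lay below both fresh frozen values, beside 26.6% of all genes, and in 4 (4.76%) both lay above, beside 26.5%. All of these shares of members were below those of all genes tested. On simulated data of this design the fit over 13771 genes recovered 75.9% of changes of 2-fold and 99.3% of changes of 4-fold. The simulated noise was independent between genes, without shifts shared by many genes of a library. In the data, genes of at least 100 FPKM had log2 fold changes from -1.66 to 1.49 and a smallest limma adjusted p of 0.112. Differences under 2-fold and also above it could thus be missed at this number of libraries.

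Most members nevertheless had a log2 fold change on the same side: 63 were below 0 and 21 above, with a median of -0.10. The median was -0.06 for the small subunit (25 of 34 below 0) and -0.11 for the large (38 of 50 below 0). Over all genes tested it was 0.0066 with 49.0% below 0, and over the 603 genes of at least 100 FPKM it was 0.048. This median depends on single libraries. It was 0.0077 without RVC 1 and 0.022 without fresh frozen 1, and -0.22 without RVC 2 and -0.24 without fresh frozen 2. No direction between RVC and fresh frozen is therefore given for the members as a group.

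The 4 largest negative values among members whose groups did not overlap were those of Rpl32l, Rpl23, Rpl5 and Rpl3. Rpl23, a large-subunit protein that also binds MDM2, measured 293 and 352 FPKM in RVC and 482 and 386 FPKM in fresh frozen. Its log2 fold change was -0.42 ± 0.15 (SE, limma adjusted p = 0.224). Rpl5, which carries 5S ribosomal RNA into the large subunit, measured 168 and 188 FPKM in RVC and 284 and 199.7 FPKM in fresh frozen, a log2 fold change of -0.42 ± 0.17 (SE, limma adjusted p = 0.260). For Rpl5 the value of fresh frozen 1 stood above the other 3. Rpl3, a protein close to the peptidyl transferase centre, measured 215 and 248 FPKM in RVC and 354 and 266 FPKM in fresh frozen, a log2 fold change of -0.40 ± 0.16 (SE, limma adjusted p = 0.246). The pseudogene Rpl32l measured 2.36 and 2.47 FPKM in RVC and 5.35 and 3.15 FPKM in fresh frozen, a log2 fold change of -0.59 ± 0.20 (SE, limma adjusted p = 0.210). Every 100-base window of Rpl32l also occurred in the transcript of the gene Gm68158, and its level is uncertain for that reason. Without fresh frozen 1 the values were -0.29 for Rpl32l, -0.28 for Rpl23, -0.18 for Rpl5 and -0.22 for Rpl3.

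The 4 members with both RVC values above both fresh frozen values were Rps4l, Rps14, Rpl41 and Rps27l. Rps4l, a paralogue of Rps4x on chromosome 6, measured 12.3 and 8.50 FPKM in RVC and 6.69 and 7.54 FPKM in fresh frozen. Its log2 fold change was 0.48 ± 0.18 (SE, limma adjusted p = 0.233). The other 3 had log2 fold changes of 0.19 (Rps14), 0.16 (Rpl41) and 0.11 (Rps27l), with limma adjusted p-values of 0.496, 0.579 and 0.616. None of the 4 passed the adjusted threshold. Rps4l was at 0.23 without RVC 1, Rps14 at 0.08 and Rps27l at 0.024 without fresh frozen 2, and Rpl41 at 0.08 without RVC 2.

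Nearly all members differed in the same direction between the 2 libraries of a group. In RVC, 82 of 84 members were lower in library 1 than in library 2, with a median log2 difference of -0.21. In fresh frozen, 83 of 84 were higher in library 1 than in library 2, with a median of 0.26. Over all genes tested these medians were -0.0095 and 0.0021, and over genes of at least 100 FPKM they were -0.04 and 0.14. Between groups the median difference ranged from -0.36 (RVC 1 less fresh frozen 1) to 0.14 (RVC 2 less fresh frozen 2). The distance between libraries 1 and 2 of fresh frozen was thus larger than the median difference between the groups.

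The median scaled FPKM of members was 337 in RVC 1, 377 in fresh frozen 2, 399.6 in RVC 2 and 436 in fresh frozen 1. Fresh frozen 1 had the highest value of 65 of the 84 members (77.4%, beside 27.4% of all genes and 39.8% of genes of at least 100 FPKM), and RVC 1 the lowest value of 58 (69.0%, beside 28.2% and 28.7%). RVC 2 was highest for 18 members and fresh frozen 2 lowest for 24. The full order RVC 1, fresh frozen 2, RVC 2, fresh frozen 1, from low to high, occurred in 41 members (48.8%), in 11.9% of genes of at least 100 FPKM and in 4.34% of all genes. These 4 libraries also differed in relative depth, at 81.8, 100, 79.8 and 72.6% in that order, and in the share of FPKM in genes under 300 nt, at 23.7, 26.4, 22.4 and 19.2%. Their part in the result was not tested.

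**Figure D2:**
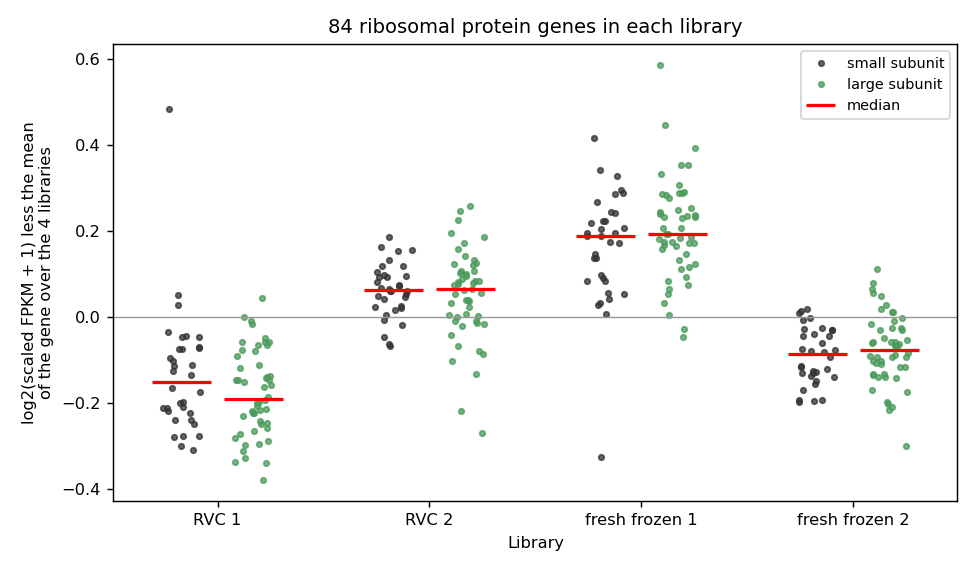
Each point is 1 of 84 members in 1 library, as log2(scaled FPKM + 1) less the mean of that gene over the 4 libraries, for small-subunit (black, 34) and large-subunit (green, 50) genes; red bars are medians and the sideways spread is only for display. Most points lie below 0 in RVC 1 and above 0 in fresh frozen 1, in both subunits.

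After the library median of the members was taken off, 35 of the 84 stayed within 0.1 log2 of their own mean in every library. Rps4l (up to 0.65) and Rpl32l (0.40), both of low level, departed by more than 0.3. Among abundant members the widest departures were those of Rpl5 (0.26, in fresh frozen 1) and Rpl41 (-0.24, in fresh frozen 1). Rps4x, an X-linked small-subunit gene, departed by 0.23 in the same library, where it measured 536 FPKM against 325, 380 and 374 FPKM in RVC 1, RVC 2 and fresh frozen 2.

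The log2 fold change varied with transcript length among the members. Across the 79 members of at least 100 FPKM, Spearman's rho between it and the length of the most abundant transcript was -0.55. Rpl5 (2045 nt), Rpl3 (1351 nt) and Rpl23 (1059 nt) had values near -0.4, and Rps27 (345 nt) and Rpl41 (437 nt) had positive ones. Within groups the same rho was 0.033 for RVC 1 less RVC 2 and 0.38 for fresh frozen 1 less fresh frozen 2. For the 4 differences between an RVC library and one of fresh frozen it ranged from -0.37 to -0.58. Level per length went the same way, with a rho of -0.50 between mean FPKM and length. These are descriptions across genes that share libraries and the length estimate, and genes are not independent replicates.

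**Figure D3:**
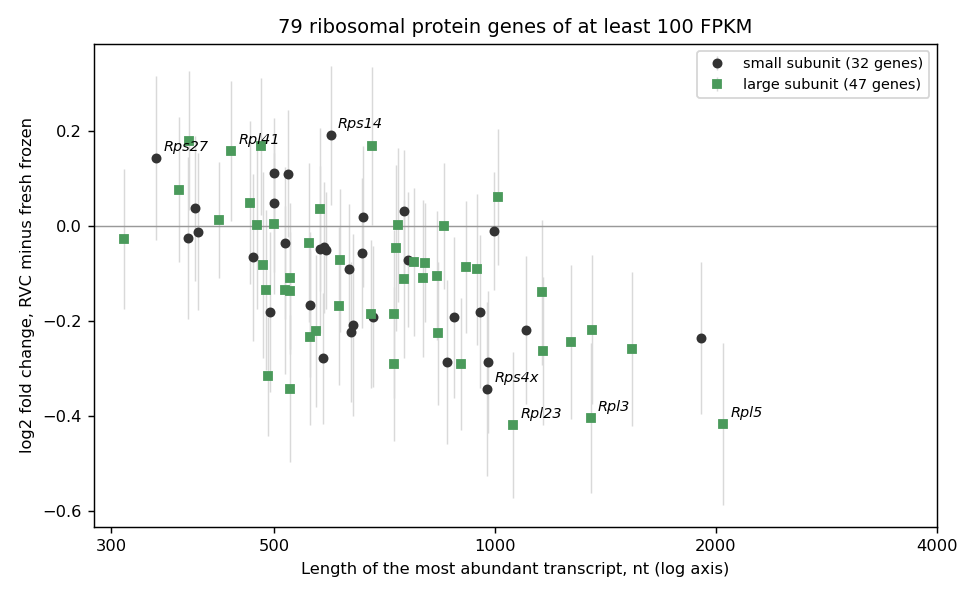
Log2 fold change of RVC minus fresh frozen (limma, bars are SE) against the length of the most abundant transcript in nt (log axis) for the 79 members of at least 100 FPKM, 32 small-subunit (black circles) and 47 large-subunit (green squares). Values lie around 0 for the shortest transcripts and reach -0.42 for Rpl5 at 2045 nt, and no single gene passed the adjusted threshold.

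Markers of other tissue layers differed between the same groups. All 12 smooth muscle genes had a log2 fold change above 0, with a median of 0.74. Their summed scaled FPKM was 1417 and 2067 in RVC and 896 and 951 in fresh frozen. All 6 tested plasma cell genes (median 0.46) and all 9 tested endothelial genes (median 0.48) were also above 0, and none of these marker genes passed the adjusted threshold. All 9 listed plasma cell genes, tested or not, summed to 1039 and 928 FPKM in RVC and 415 and 621 FPKM in fresh frozen. All 10 listed endothelial genes summed to 28.8 and 28.6 FPKM in RVC and 15.7 and 18.4 FPKM in fresh frozen. Of 10 tested stem and proliferation genes 6 were below 0 and 4 above (median -0.12). At an unadjusted p under 0.05 (limma), 4 of the 10 were lower in RVC and 0 higher, beside 8.99% and 9.38% of all genes. In 4 of the 10 both RVC values lay below both fresh frozen values, and in 0 above. All 13 listed genes, tested or not, summed to 55.7 and 63.4 FPKM in RVC and 66.6 and 70.5 FPKM in fresh frozen. None of these 4 summed levels had the order of libraries that was most frequent among the ribosomal protein genes, nor its reverse. Their part in the members' values was not tested.

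Of the 8 paralogue pairs, 5 had both genes above 1 FPKM. Rpl36al, a retroposed copy of X-linked Rpl36a on chromosome 12, had the highest share of its pair: 32.3, 25.9, 30.9 and 28.7% of the summed FPKM in RVC 1, RVC 2, fresh frozen 1 and fresh frozen 2, a mean of 29.5 ± 2.81% (SD, n = 4). Rpl36al measured 156 ± 15.3 FPKM and Rpl36a 378 ± 63.8 FPKM (SD, n = 4). Their coding sequences were identical at 87.7% of aligned positions, with a longest identical stretch of 24 bases. The groups overlapped, and both genes of the pair encode a protein of the tRNA exit site. Pseudogenes are left out of these shares. Those named after Rpl36a held 26.6% of the FPKM of Rpl36a and its pseudogenes, against 0.061% for Rpl22. The largest were Rpl36a-ps2, Rpl36a-ps3 and Rpl36a-ps1, at 61.8, 44.5 and 28.1 FPKM in the mean. If they were counted with Rpl36a, the mean share of Rpl36al would fall below the 24.2% of Rpl22l1, though not in RVC 1. The first rank of Rpl36al thus holds only with pseudogenes left out.

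Rpl22l1 had the second highest share with pseudogenes left out. Rpl22 and Rpl22l1 encode closely related proteins of the large subunit, and RPL22 is known to bind and repress the Rpl22l1 mRNA. Rpl22 measured 336 and 476 FPKM in RVC and 421 and 382 FPKM in fresh frozen, and Rpl22l1 97.3 and 131 FPKM against 152 and 137 FPKM. The share of Rpl22l1 was 22.5 and 21.6% in RVC and 26.5 and 26.3% in fresh frozen, so that both RVC values lay below both fresh frozen values. An exact two-sided permutation test gave p = 0.333, the smallest that 2 against 2 libraries allow, and 0.833 after adjustment over the 5 pairs. In the gene test Rpl22l1 had a log2 fold change of -0.34 ± 0.15 (SE, limma adjusted p = 0.289), and Rpl22 one of 0.0007 (limma adjusted p = 0.999).

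Rps27l, a paralogue of Rps27 known as a target of p53, held 10.3, 8.95, 9.52 and 10.05% of its pair in RVC 1, RVC 2, fresh frozen 1 and fresh frozen 2. Rps27l measured 179 ± 12.2 FPKM (SD, n = 4), 9.35-fold below Rps27, and its groups overlapped in share. Rpl7l1, a nucleolar protein of ribosome assembly related to Rpl7, held 4.23, 3.11, 3.36 and 3.82% of its pair, with overlapping groups. Rps4l held 3.64 and 2.19% in RVC and 1.23 and 1.98% in fresh frozen (exact two-sided permutation test p = 0.333, adjusted 0.833). The RVC shares of Rps4l both lay above those of fresh frozen, and the level of Rps4l was low in all 4 libraries. Its leading transcript was not in GENCODE vM39.

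Coding identity also differed among the pairs. It was 76.2% for Rps27 and Rps27l, 79.7% for Rps4x and Rps4l, 68.2% for Rpl22 and Rpl22l1, and 54.0% for Rpl7 and Rpl7l1. The longest identical stretch within these 4 pairs was 35 bases, in Rps4x and Rps4l.

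**Figure D4:**
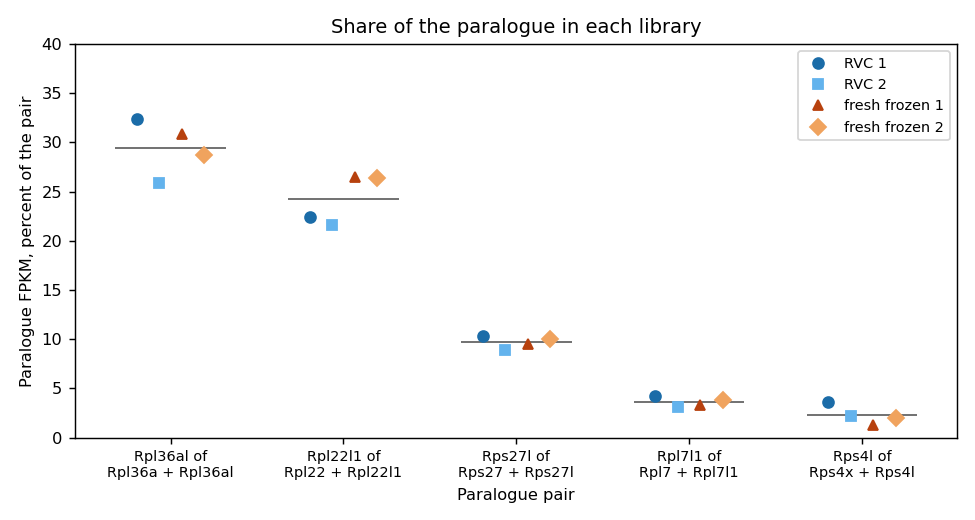
Share of the paralogue in the summed FPKM of its pair, in percent, in each of the 4 libraries for the 5 pairs with both genes above 1 FPKM; grey lines are means over the libraries. The shares, which leave pseudogenes out, run from 29.5% for Rpl36al to 2.26% for Rps4l, and the groups do not overlap for Rpl22l1 and Rps4l.

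The other 3 paralogues were at or near 0. Rpl3l, the form of skeletal and cardiac muscle, measured 0.042 FPKM in the mean, beside 271 FPKM for Rpl3. Rpl10l, an intronless form of the testis, was listed at 0 in every library, beside 514 FPKM for Rpl10. Rpl39l, also known from male germ cells, was listed at 0 in 3 libraries and at 0.11 FPKM in fresh frozen 1, beside 514 FPKM for Rpl39. Among markers of the tissues these paralogues are known from, Mb was at 0 in every library, as were Ddx4, Odf1, Prm1, Prm2, Tnp1 and Tnp2. Low levels were found for Tnnt2 (4.49 FPKM) and Ckm (3.25 FPKM) of the muscle list and Sycp3 (2.23 FPKM) of the germ cell list, the genes of these lists that passed the filter. Coding identity was 73.2% for Rpl3 and Rpl3l, 84.7% for Rpl10 and Rpl10l and 85.0% for Rpl39 and Rpl39l.

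The members had 501 annotated transcripts, and most of their FPKM lay in a few. In 43 of the 84 the most abundant transcript held at least 90% of the gene's FPKM. Transcripts of type protein_coding held 90.03 ± 0.442% of the members' FPKM (SD, n = 4), retained-intron transcripts 4.22 ± 0.318% and nonsense-mediated decay transcripts 4.09 ± 0.0892%. The retained-intron share was 4.10 and 3.86% in RVC and 4.59 and 4.34% in fresh frozen, and the share of transcripts without a defined coding sequence was 1.43 and 1.45% against 1.72 and 1.71%. Both of these shares were lower in the RVC libraries without overlap, a difference that was not tested. The most abundant transcript was of type protein_coding in 73 of the 84 members. In Rps20 and Rps16 it was typed as a retained intron and held 91.1% and 73.3% of the gene. The retained-intron share thus rests in part on the types given to a few abundant genes, and shares over all genes are not given here.

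In 5 members (Rpl13a, Rpl31, Rps10, Rps19 and Rps24) no transcript held 50% of the gene. In Rps24, a protein of the small subunit whose last exons are alternatively spliced, a transcript of 468 nt held 33.6 and 32.9% in RVC and 40.3 and 41.0% in fresh frozen. A transcript of 525 nt held 26.6 and 28.9% in RVC and 23.9 and 20.9% in fresh frozen. Of this pair the shorter was thus lower and the longer higher in both RVC libraries. A transcript of 1613 nt held 15.6 and 15.7% in RVC and 16.9 and 18.4% in fresh frozen. One of 519 nt held 18.9 and 16.6% in RVC and 13.4 and 12.5% in fresh frozen, so the direction did not follow length. In Rpl13a a retained-intron transcript of 464 nt held 29.8 to 35.5%, and in Rpl31 the 3 leading transcripts held 37.2, 33.2 and 27.3% in the mean. In Rps10 the 4 leading transcripts held 35.9, 30.7, 20.6 and 12.2%, and in Rps19 the 3 leading ones 40.4, 29.6 and 27.0%. The division of reads among overlapping transcripts is an estimate of the authors' software.

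Copies of the members elsewhere in the genome bear on these levels. The tables listed 314 genes named as pseudogenes of 63 members, 133 of them at 1 FPKM or more, and together they held 4.402, 4.32, 4.69 and 4.61% of the FPKM of members and pseudogenes in RVC 1, RVC 2, fresh frozen 1 and fresh frozen 2. Counted by these names, the share was highest for Rpl36a (26.6 ± 3.26%, SD, n = 4), Rpl10 (22.2 ± 1.09%) and Rpl15 (21.6 ± 1.53%). Rpl31 had 24 such genes and a share of 19.2 ± 0.675%. The largest single contribution to Rpl10 was Rpl10-ps3, at 84.4 FPKM, which GENCODE vM39 types as protein_coding. Only symbols made of a member's symbol and the suffix -ps, with or without a number, were counted. Copies under other names were left out, such as Gm45713, which shares sequence with Rpl13a. Rps27 had a share of 0.027%, although its near copy Rps27rt had a mean of 84.7 FPKM. The total and the order of members by share therefore cover pseudogenes so named, not all copies.

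In 83 members with a transcript sequence, a median of 32.7% of the 100-base windows of the most abundant transcript also occurred in another gene's transcript. In 28 of them over 50% of windows did, and in 6 none did. The sequences were those of GENCODE vM39, and some are much longer than the deposited length of the same transcript. Rps15a had a deposited length of 640 nt and 5233 windows, and Rpl37 had 835 nt and 6012 windows. For such genes the percentage can understate how much of the listed transcript is shared. The pseudogenes Rpl32l and Rps12l1 shared 100% of their windows, Rpl10 93.6%, Rpl9 84.8%, Rpl36a 83.8% and Rps6 81.6%. Rps27 shared 58.0%, all of these windows also being found in Rps27rt, a near copy at 84.7 ± 9.20 FPKM (SD, n = 4). Rps27l and Rpl22 shared none. Reads of shared windows are divided between the genes by the authors' software, so the levels of Rpl32l, Rps12l1, Rpl10, Rpl9, Rpl36a, Rps6 and Rps27 are less certain than those of Rps27l and Rpl22. The median log2 fold change was -0.10 for members with over 50% shared windows and -0.04 for those with none.

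Among the members, 29 hold snoRNA genes on their own strand, 58 in all, with 5 in Rpl4, a protein lining the exit tunnel, and 4 in Rpl13a. Of the 58, 25 had a mean of at least 1 FPKM and 28 were listed at 0 in every library. Snord21, inside Rpl5, was highest, with 2760 and 5916 FPKM in RVC and 786 and 6598 FPKM in fresh frozen. The lowest and the highest Snord21 values were both in fresh frozen libraries, where Rpl5 itself measured 284 and 199.7 FPKM. These genes are shorter than 300 nt, and their FPKM is unstable. Host genes had a median log2 fold change of -0.19 and other members one of -0.07.

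Ribosome genes outside the symbol rule stood within the range of the members. Fau, a fusion of a ubiquitin-like domain with a small-subunit protein, measured 667 ± 88.9 FPKM (SD, n = 4). Fau had 722 and 736 FPKM in RVC and 670 and 541 FPKM in fresh frozen, a log2 fold change of 0.28 ± 0.14 (SE, limma adjusted p = 0.335). Rack1, the scaffold protein of the small subunit head, measured 237 and 290 FPKM in RVC and 383 and 306 FPKM in fresh frozen, a log2 fold change of -0.38 ± 0.16 (SE, limma adjusted p = 0.261). As for Rpl3 and Rpl5, the value of fresh frozen 1 was the highest.

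Other genes of ribosome production, the companion lists, were read from the same fit. One list held 13 genes known for TOP mRNAs, most of them genes of translation factors. None of the 13 passed the adjusted threshold, 11 were below 0, and their median log2 fold change was -0.19. The most abundant of them were Tpt1, at 1579 ± 229.98 FPKM (SD, n = 4), and Eef1a1, the elongation factor that delivers tRNA, at 1396 ± 213 FPKM. Within groups these genes moved as the members did, with medians of -0.19 for RVC 1 less RVC 2 and 0.26 for fresh frozen 1 less fresh frozen 2. At an unadjusted p under 0.05 (limma), 4 of the 13 were lower in RVC and 0 higher, beside 8.99% and 9.38% of all genes. None of 24 ribosome biogenesis genes passed, with 16 below 0, 8 above and a median of -0.14. Of the 24, 6 were lower in RVC and 0 higher at an unadjusted p under 0.05 (limma), beside the same shares of all genes. The 2 most abundant, Eif6 and Sbds, were among those above 0, with log2 fold changes of 0.29 and 0.16. Eif6, which keeps the large subunit from joining early, measured 77.2 ± 13.3 FPKM, and Sbds, which helps release it, 73.1 ± 5.26 FPKM (SD, n = 4). None of 12 RNA polymerase I genes (5 below 0) and none of 12 regulators (6 below 0) passed, with medians of 0.015 and 0.04. Polr1d measured 62.5 ± 8.10 FPKM, Taf1d 33.9 ± 3.21 FPKM, Max 162 ± 18.4 FPKM and Eif4ebp2 21.8 ± 0.882 FPKM (SD, n = 4).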

How the data were processed

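Per the labels' protocols, TRIzol and column extraction was followed by enzymatic removal of ribosomal RNA, KAPA HyperPrep library construction and paired-end sequencing. The deposited FPKM values were made by the authors with TopHat 2.1.1 and Cufflinks 2.2.1 on GRCm39, per the submitters' processing notes. The annotation, any strand setting and the number of reads are not given in the sources used here. The files also hold a coverage signal per transcript, per the file headers, which was used only for relative depth.

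Gene FPKM was the sum over the 141738 listed transcripts of each gene. Libraries were scaled by median ratio. Tested genes had a mean of at least 1 scaled FPKM, a transcript of 300 nt or more and the status OK throughout. The group comparison used limma 3.58.1 under R 4.3.3 (two-sided, with trend, no covariate) on log2(scaled FPKM + 1), a scale that understates changes of low genes, with Benjamini-Hochberg adjustment over all 13771 genes and a threshold of 0.05. The test was checked on simulated data with noise independent between genes, where 5.63% of calls were false. The permutation test of paralogue shares used scipy 1.17.1. Coding sequences came from GENCODE vM39 and were aligned with Biopython 1.88, using the most abundant transcript of a gene of at least 1 FPKM and otherwise the canonical one.

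Named members are both genes of each paralogue pair, the 3 highest and 3 lowest of each subunit among those that passed the filter, and the 4 largest values in each direction among those whose groups did not overlap. Fau, Rack1 and the 2 most abundant genes of each other companion list of ribosome production are named too. Single genes of the marker lists are outside this rule. Other names give small counts or features that were chosen after their values were seen. The members, lists and this rule were chosen with earlier results of these data known. Alternatives covered the pseudocount, scaling, filters, transcript choice, trend, a replicate block and each library left out. The exact test of shares, a crossed replicate block, protein-coding genes as the denominator and members of at least 100 FPKM were added after seeing the data. Protein sequences were not used here, and some genes are not reported here.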

Additional observations from a re-analysis of the deposited data

How the results depend on the processing

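The count of members past the adjusted threshold was 0 under each of the 14 alternatives run, with 0 to 20 members at an unadjusted p under 0.05 (limma). Over all genes the limma count was 5, and the alternatives gave 6 with a pseudocount of 0.1, no scaling or upper-quartile scaling, 2 with a mean of at least 5 FPKM or the most abundant transcript, 0 with no filter, no trend or transcripts under 300 nt left out of the sum, and 8 to 40 with a library left out, where the lone library of a group is assumed to vary like the others. With a replicate block the paired fit gave 0 members and 112 genes, and the members' median stayed at -0.098 (log2). The labels do not tie the numbers to a mouse or day, and the correlation of the number differences in RVC and fresh frozen was -0.13 across genes. A crossed replicate block, pairing RVC 1 with fresh frozen 2, gave 0 members and 12 genes. The median log2 fold change of members lay between -0.24 and 0.022 with a library left out, and its sign rests on RVC 1 and fresh frozen 1. The other alternatives gave -0.10 to -0.09. The small subunit excess stayed between 0.23 and 0.37. The share of summed FPKM held by members was 4.27% over all genes and 8.94% over protein-coding genes only, by the construction of the denominator. When each gene was read from its leading transcript alone, the share of Rpl22l1 was 18.6%, that of Rps27l 8.10% and that of Rpl7l1 2.75%. The 8 named fold changes kept their direction in every alternative run, but Rpl32l gave none at a mean of at least 5 FPKM. With a library left out their size moved: -0.88 to -0.29 for Rpl32l, -0.57 to -0.28 for Rpl23, -0.66 to -0.18 for Rpl5, -0.60 to -0.22 for Rpl3, 0.23 to 0.72 for Rps4l, 0.08 to 0.29 for Rps14, 0.08 to 0.24 for Rpl41 and 0.024 to 0.19 for Rps27l. Read from the leading transcript alone, Rpl23 was at -0.25, Rpl41 at 0.30 and Rps27l at 0.28, outside these ranges, and the others stayed within theirs. With 2 libraries a group and unknown fragment numbers, differences under 2-fold are poorly resolved, and larger ones can be missed.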
